A study of Mus musculus with 8 samples.

Results

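The genes described here encode the enzymes that build cholesterol and fatty acids, the factors that switch those enzymes on, and a carrier that moves sterols inside cells. A list of 34 symbols named them, and 33 were among the 24062 genes of the count tables, since Sc4mol is an older symbol of Msmo1. All 33 passed the filter on low counts, which left 15789 genes, and every library held between 351 and 51664 reads for each of them. RNA was sequenced from whole cerebella of single pups at postnatal day 2, 4 of them mutants and 4 control littermates. The mutants were Math1-Cre; Sufu flox/- pups, which carry a null and a floxed allele of Sufu, a negative regulator of Hedgehog signalling. The controls were Sufu flox/+, per the series text, and the sources used here do not say if any of them had Cre. The strain label is C57BL/6(mixed), and the flox parent of every pup was homozygous for an allele written Math1 mgfp, so mutants and controls alike inherited 1 copy of it. Math1-Cre is active in the precursors of granule neurons, so other cells of the mutant cerebellum keep a working floxed allele beside the null one.

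Cells make cholesterol from acetyl-CoA by way of mevalonate, farnesyl diphosphate, squalene and lanosterol. Transcription of the enzymes is switched on by SREBP factors, which Scap escorts out of the endoplasmic reticulum and Insig proteins hold back when sterols are plentiful. SREBP-2 acts mainly on cholesterol genes and SREBP-1 mainly on fatty acid genes. The brain makes its own cholesterol, glia and above all myelinating cells make much of it, and Smoothened, the Hedgehog transducer that Sufu acts downstream of, binds sterols.

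Most enzymes of both pathways had lower mean levels in the mutants, and no single gene passed the test after adjustment over all genes. Of the 33 genes, 26 (78.8%) had a log2 fold change of mutant over control below 0, against 47.7% of all genes tested, and 7 (21.2%) were above 0, against 52.3%. Their median log2 fold change was -0.11, against 0.012 over all genes tested, and the individual values lay between -0.46 and 0.29. None of the 33 passed an adjusted p of 0.05 (edgeR quasi-likelihood test, Benjamini-Hochberg over all genes), where 0% of all genes passed, and none passed with DESeq2, which called 0.324% of 16062 genes and 0.0747% as lower in mutants. Without adjustment, 5 of the 33 (15.2%) were lower in mutants at p under 0.05, against 5.70% of all genes tested, and these were Acat2, Mvk, Fdps, Tm7sf2 and Fads2. None was higher at that level, against 6.94% of all genes, and both directions together made 12.6%. That count was 10 without mutant 1, 8 without control 2 and 3 without mutant 4. The share of all genes in those fits is not given, so it cannot be told if these changes were particular to the 33. The 33 genes were picked with earlier results of these data known, so these shares describe them and are no test of the pathway.

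**Figure D1:**
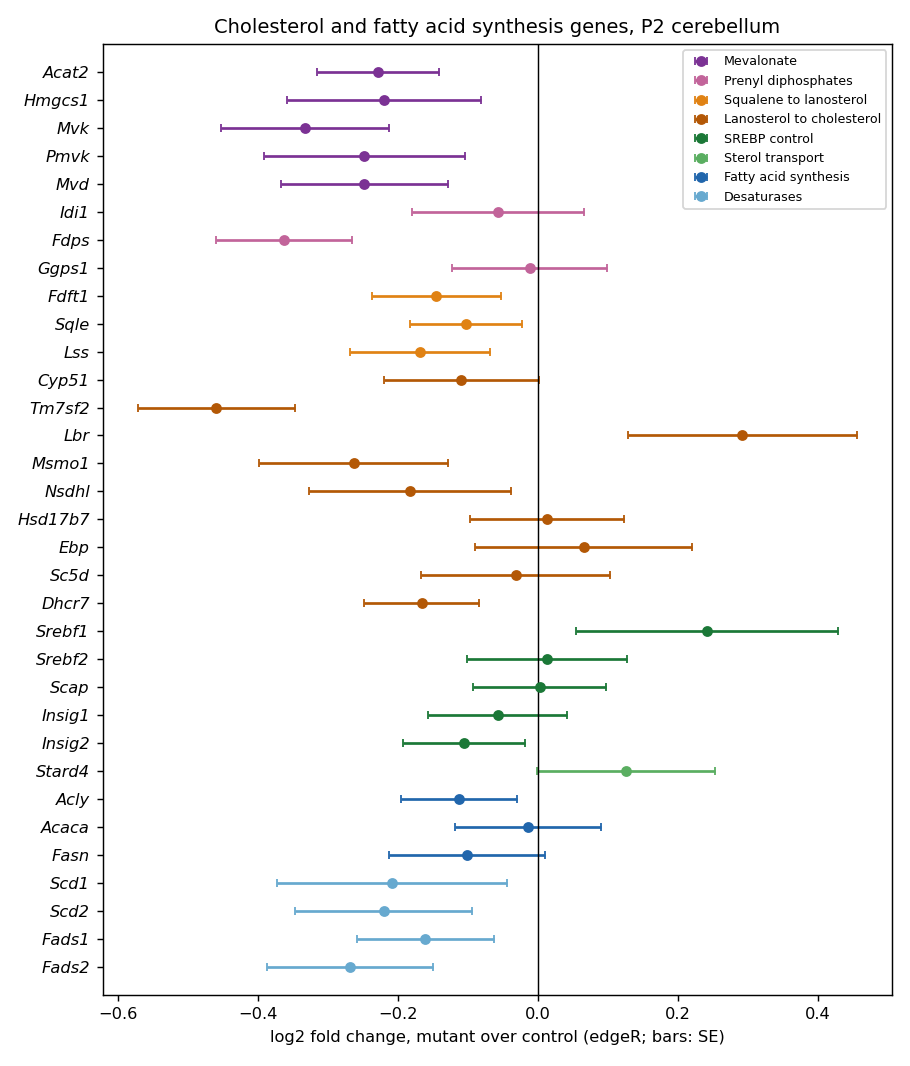
Log2 fold change of mutant over control for each of the 33 genes (horizontal axis, edgeR fit over 4 mutant and 4 control pups), with bars for the standard error and colours for the pathway step. The points run from -0.46 for Tm7sf2 to 0.29 for Lbr, and 26 of the 33 lie left of 0.

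Sufu was lower in each mutant pup than in any control pup, which checks the labels. It stood at 31.7, 34.4, 36.8 and 39.8 CPM in mutants 1 to 4 and at 47.7, 51.0, 55.9 and 60.8 CPM in controls 1 to 4. CPM are counts scaled to a common library size with edgeR's TMM factors, and totals were 21479565 to 26638284 counts per library. The library titles carry a letter of unstated meaning, P for mutants 1 and 2 and controls 1 and 2 and R for the other pups, and values within each letter are given beside the pooled ones. Markers of the labelled tissue were present in all 8 libraries, with Zic1 between 481 and 906 CPM and Calb1 between 110 and 250 CPM. Markers of adjacent hindbrain were lowest in mutant 4 and also low in mutants 2 and 3. Hoxb3 was 35.2, 18.95, 21.75 and 1.08 CPM in mutants 1 to 4 and 33.9 to 36.2 CPM in controls. The 14 brainstem and Hox markers summed to 190, 80.0, 110 and 8.14 CPM in mutants 1 to 4 and to 143 to 234 CPM in controls.

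The promoters of these genes were read from RefSeq windows of 250 bases before to 50 after a transcription start (build GRCm38.p6), which were given for 26 of the 33 genes in 34 windows. No window was given for Fdps, Sqle, Fdft1, Stard4, Scd1, Scd2 and Fads1. The sterol response element, written TCACNCCAC and searched on both strands, was found in 1 of the 26 (3.85%), against 1.44% of tested genes with a window. That gene was Hmgcs1. The search took these letters exactly, so close variants were not counted. The CCAAT box bound by NF-Y, a partner of SREBP at sterol genes, was found in 22 of the 26 (84.6%), against 42.3% of 11713 tested genes with a window. The GC box GGGCGG bound by Sp1 was found in 22 (84.6%), against 66.4%, and the E-box CACGTG in 5 (19.2%), against 11.2%. A match to these letters is a description of the window and not a binding site. The windows below are those of Hmgcs1, with the 1 sterol response element, of Mvk, with the most CCAAT boxes, and of Tm7sf2 and Lbr, a pair of enzymes for the same reaction whose mean levels went opposite ways. Capitals mark CCAAT boxes, which read ATTGG where they lie on the other strand, and in Hmgcs1 also the sterol element TCACCCCAC. No marked motif overlapped another or a GC box or E-box.
Hmgcs1 promoter, chr13:119690101-119690400, plus strand: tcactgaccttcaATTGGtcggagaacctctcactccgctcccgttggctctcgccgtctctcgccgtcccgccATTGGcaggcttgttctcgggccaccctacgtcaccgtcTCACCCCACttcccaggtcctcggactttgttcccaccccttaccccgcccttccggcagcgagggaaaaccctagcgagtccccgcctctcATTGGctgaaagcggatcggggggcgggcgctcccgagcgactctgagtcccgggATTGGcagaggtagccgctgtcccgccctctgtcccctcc
Mvk promoter, chr5:114444019-114444318, plus strand: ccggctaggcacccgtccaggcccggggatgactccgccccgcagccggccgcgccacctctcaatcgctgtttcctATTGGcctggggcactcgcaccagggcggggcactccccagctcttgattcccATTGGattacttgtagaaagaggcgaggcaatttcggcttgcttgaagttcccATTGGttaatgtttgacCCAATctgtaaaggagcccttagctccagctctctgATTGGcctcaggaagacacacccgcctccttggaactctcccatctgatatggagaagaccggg
Tm7sf2 promoter, chr19:6067801-6068100, minus strand: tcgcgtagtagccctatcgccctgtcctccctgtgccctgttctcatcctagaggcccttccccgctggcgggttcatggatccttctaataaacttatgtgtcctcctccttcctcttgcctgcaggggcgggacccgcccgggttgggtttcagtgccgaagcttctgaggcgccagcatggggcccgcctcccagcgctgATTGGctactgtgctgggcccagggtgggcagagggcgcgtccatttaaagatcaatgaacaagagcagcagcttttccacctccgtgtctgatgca
Lbr promoter, chr1:181842352-181842651, minus strand: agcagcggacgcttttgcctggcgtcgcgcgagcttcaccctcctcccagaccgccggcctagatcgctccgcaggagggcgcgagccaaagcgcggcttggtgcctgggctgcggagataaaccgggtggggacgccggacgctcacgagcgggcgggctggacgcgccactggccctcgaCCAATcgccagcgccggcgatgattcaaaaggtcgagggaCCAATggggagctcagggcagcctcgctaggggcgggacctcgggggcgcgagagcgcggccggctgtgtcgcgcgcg
Mvk held 5 CCAAT boxes, Hmgcs1 4, Lbr 2 and Tm7sf2 1. Acat2 had no CCAAT box and no sterol element in its window.

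All 5 genes of the mevalonate arm had lower means in mutants, with log2 fold changes from -0.33 to -0.22 and a median of -0.25. The arm joins acetyl-CoA units into mevalonate and converts that into isopentenyl diphosphate. Acat2, the cytosolic thiolase that starts it, stood at 112, 100, 91.6 and 94.5 CPM in mutants 1 to 4 and at 115, 119, 116 and 116 CPM in controls 1 to 4. The mutant and control pups did not overlap, and the controls lay within a few CPM of each other. Its log2 fold change was -0.23 (SE 0.09, edgeR adjusted p = 0.381). Mvk, the mevalonate kinase, stood at 41.1, 46.5, 58.3 and 44.8 CPM in mutants and at 60.7, 55.3, 67.5 and 56.7 CPM in controls. Mutant 3 lay above controls 2 and 4, so the groups overlapped, and the log2 fold change was -0.33 (SE 0.12, edgeR adjusted p = 0.381). Mvd, which makes isopentenyl diphosphate, stood at 40.4, 43.0, 49.95 and 40.5 CPM in mutants and at 47.3, 44.7, 61.2 and 53.4 CPM in controls, a log2 fold change of -0.25 (SE 0.12, edgeR adjusted p = 0.403) that was -0.16 without control 3. Only mutant 3 lay within the range of the controls. Hmgcs1, the synthase of the first committed intermediate, averaged 615 ± 118 CPM in mutants and 716 ± 43.3 CPM in controls (SD, n = 4 each), and mutants 2, 3 and 4 had 652, 553 and 493 CPM, below every control. Pmvk, the second kinase of the arm, averaged 53.1 ± 7.82 CPM in mutants and 63.1 ± 10.8 CPM in controls (SD, n = 4 each).

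Fdps, the synthase of farnesyl diphosphate, was among the most separated of the 33. It stood at 94.2, 89.4, 104 and 80.7 CPM in mutants 1 to 4 and at 119, 113, 128 and 114 CPM in controls 1 to 4. Every mutant lay below every control, in both title letters, with a log2 fold change of -0.36 (SE 0.10) and an edgeR adjusted p of 0.381. Over the alternative settings its adjusted p ran from 0.0991 with DESeq2 to 0.9999 with a Hox score as covariate. That score is the mean log2 CPM of 14 markers of brainstem and posterior hindbrain in each pup. It was lower in mutants 2, 3 and 4 than in any control, so fits that include it cannot separate the score from genotype. The other 2 genes of this step differed little. Idi1, the isomerase of isopentenyl diphosphate, averaged 119 ± 13.3 CPM in mutants and 124 ± 18.7 CPM in controls (SD, n = 4 each). Ggps1, which leads away from sterols to geranylgeranyl diphosphate, averaged 41.8 ± 4.22 CPM in mutants and 42.1 ± 4.62 CPM in controls (SD, n = 4 each).

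The 3 enzymes that turn farnesyl diphosphate into lanosterol had means 6.87 to 11.1% lower in mutants by the fit. Lss, the cyclase that forms lanosterol, had the smallest p of the 3 and stood at 51.8, 47.3, 44.2 and 41.3 CPM in mutants 1 to 4 and at 57.2, 52.8, 48.2 and 49.2 CPM in controls 1 to 4. Mutant 1 lay above controls 3 and 4, and the log2 fold change was -0.17 (SE 0.10, edgeR adjusted p = 0.462), or -0.09 with the Hox score. Sqle, the squalene epoxidase, was 138 to 156.1 CPM in mutants and 156.2 to 163 CPM in controls, so that the highest mutant and the lowest control nearly touched. Fdft1, the squalene synthase, was 112 to 138 CPM in mutants and 129 to 146 CPM in controls.

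**Figure D2:**
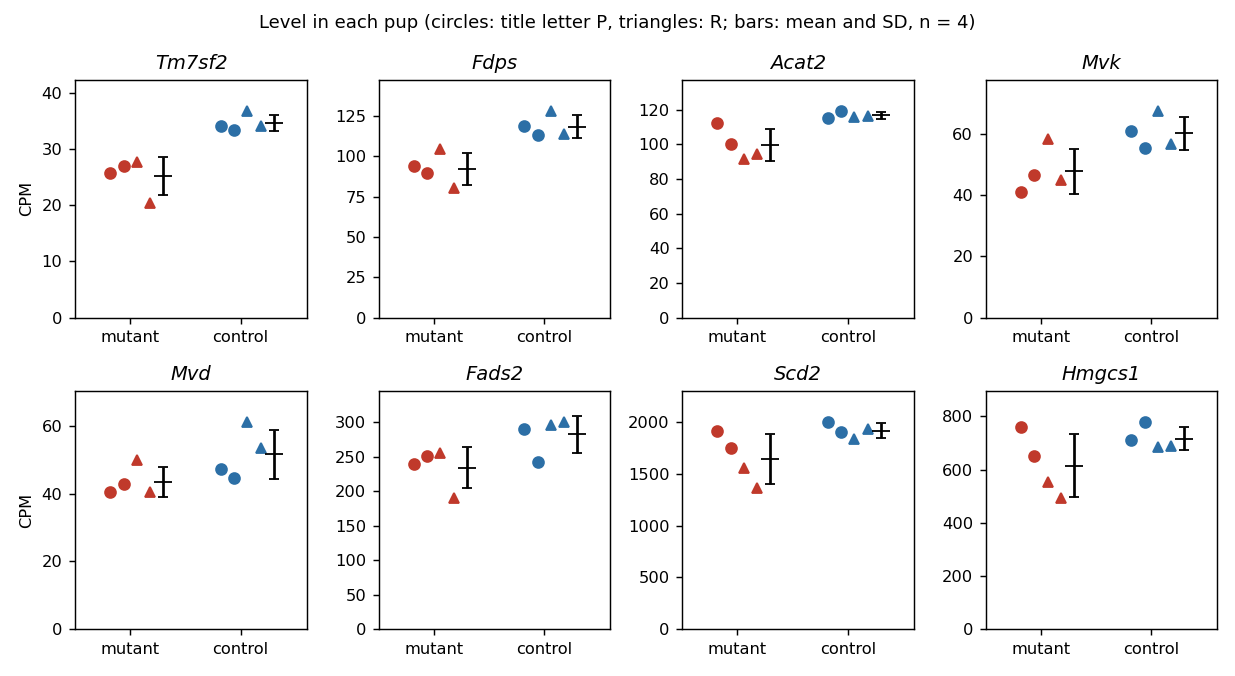
CPM in each pup for 8 of the genes, mutants at the left in red and controls at the right in blue, circles for title letter P and triangles for R, with mean and SD (n = 4). Tm7sf2, Fdps and Acat2 show no overlap between groups, and in Scd2 and Hmgcs1 mutant 1 lies among the controls while mutants 2, 3 and 4 lie below all of them.

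Conversion of lanosterol to cholesterol held both the lowest and the highest log2 fold change of the 33 genes, and they belong to the same reaction. Tm7sf2 and Lbr both encode sterol C14-reductases, and Lbr is in addition a protein of the inner nuclear membrane that binds lamins. Tm7sf2 stood at 25.6, 27.0, 27.7 and 20.4 CPM in mutants 1 to 4 and at 34.1, 33.4, 36.8 and 34.1 CPM in controls 1 to 4. Every mutant lay below every control, with a log2 fold change of -0.46 (SE 0.11) and an edgeR adjusted p of 0.381, which ran from 0.0557 with DESeq2 to 0.9999 with the Hox score as covariate. Lbr stood at 39.9, 40.4, 46.6 and 66.4 CPM in mutants and at 39.96, 44.6, 33.9 and 39.4 CPM in controls. Only mutants 3 and 4 exceeded the controls, and the log2 fold change was 0.29 (SE 0.16, edgeR adjusted p = 0.443). It was 0.09 without mutant 4 and -0.01 with the Hox score as covariate.

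Of the other 7 enzymes of this step, Cyp51, Msmo1, Nsdhl, Sc5d and Dhcr7 had lower means in mutants and Hsd17b7 and Ebp had slightly higher ones. Dhcr7, which makes cholesterol from its immediate precursor, stood at 80.4, 77.8, 78.8 and 76.3 CPM in mutants 1 to 4 and at 86.3, 80.3, 89.4 and 95.6 CPM in controls 1 to 4. The highest mutant only just reached the lowest control, and the log2 fold change was -0.17 (SE 0.08, edgeR adjusted p = 0.408). Msmo1, the C4-methyl sterol oxidase, stood at 74.8, 66.0, 70.1 and 57.1 CPM in mutants and at 92.4, 92.9, 66.4 and 69.7 CPM in controls. The log2 fold change was -0.26 (SE 0.14, edgeR adjusted p = 0.418), at -0.40 within P and -0.10 within R (edgeR interaction adjusted p = 0.317), and both P controls stood well above both R controls. The log2 fold changes of the other 5 lay between -0.18 for Nsdhl and 0.07 for Ebp.

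Among the 5 regulators of the pathway 2 had lower and 3 had higher means in mutants, with a median log2 fold change of 0.0025. Srebf2, which encodes SREBP-2, stood at 219, 256, 251 and 273 CPM in mutants 1 to 4 and at 230.2, 213, 280 and 268 CPM in controls 1 to 4. The groups covered nearly the same range, with a log2 fold change of 0.013 (SE 0.11, edgeR adjusted p = 0.970). Scap, the escort of both SREBPs, stood at 99.7, 108, 112 and 106 CPM in mutants and at 99.8, 94.0, 119 and 112 CPM in controls, a log2 fold change of 0.0025 (SE 0.10, edgeR adjusted p = 0.994). Insig2 stood at 28.4, 28.8, 27.1 and 26.1 CPM in mutants and at 29.8, 31.0, 28.2 and 29.9 CPM in controls, a log2 fold change of -0.11 (SE 0.09, edgeR adjusted p = 0.585). Insig1, itself induced by SREBPs, stood at 80.7, 77.3, 93.4 and 92.5 CPM in mutants and at 96.7, 95.5, 83.4 and 82.3 CPM in controls. Both P mutants lay below both P controls and both R mutants above both R controls, so its pooled log2 fold change was -0.06 (SE 0.10, edgeR adjusted p = 0.810). Srebf1, which encodes SREBP-1, stood at 103, 121, 178 and 199 CPM in mutants and at 129, 113, 133 and 133 CPM in controls. Mutants 3 and 4 exceeded every control and mutant 1 lay below them all, with a log2 fold change of 0.24 (SE 0.19, edgeR adjusted p = 0.563). It was 0.38 without mutant 1, 0.15 without mutant 3, 0.07 without mutant 4 and -0.03 with the Hox score as covariate. Stard4, which carries sterols between membranes and is an SREBP-2 target, stood at 36.4, 31.5, 32.9 and 42.5 CPM in mutants and at 33.1, 38.6, 28.7 and 30.8 CPM in controls, a log2 fold change of 0.13 (SE 0.13, edgeR adjusted p = 0.661). It was 0.03 without mutant 4, 0.07 without control 3 and 0.19 without control 2.

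All 7 enzymes of fatty acid synthesis and desaturation had lower means in mutants, with a median log2 fold change of -0.16 that was -0.11 without mutant 4 and -0.08 with the Hox score as covariate. Acly, which supplies cytosolic acetyl-CoA from citrate, stood at 316, 314, 309.9 and 305 CPM in mutants 1 to 4 and at 332, 328, 354 and 331 CPM in controls 1 to 4. The groups did not overlap, but the difference was small, with a log2 fold change of -0.11 (SE 0.08, edgeR adjusted p = 0.545). Acaca, the acetyl-CoA carboxylase, averaged 166 ± 20.6 CPM in mutants and 167 ± 8.87 CPM in controls, and Fasn, the fatty acid synthase, 541 ± 5.10 CPM in mutants and 581 ± 75.4 CPM in controls (SD, n = 4 each). The 4 Fasn values of mutants lay within 536 to 546 CPM, while controls split by letter into 537 and 497 CPM in P and 653 and 635 CPM in R.

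The 4 desaturases had log2 fold changes from -0.27 to -0.16, and their lowest values fell in mutant 4. Fads2, the delta-6 desaturase of polyunsaturated fatty acids, stood at 240.2, 252, 256 and 190.4 CPM in mutants 1 to 4 and at 290.1, 243, 296 and 301 CPM in controls 1 to 4. Control 2 lay within the range of the mutants, and the log2 fold change was -0.27 (SE 0.12, edgeR adjusted p = 0.393), or -0.11 with the Hox score. Scd2, a delta-9 desaturase prominent in newborn brain, stood at 1918, 1754, 1554 and 1361 CPM in mutants and at 2001, 1905, 1834 and 1935 CPM in controls, a log2 fold change of -0.22 (SE 0.13, edgeR adjusted p = 0.452). It was -0.14 without mutant 4 and -0.08 with the Hox score. Mutant 1 lay among the controls and the other 3 mutants below them. Its paralog Scd1 stood at 127, 102, 90.0 and 65.8 CPM in mutants and at 114, 119, 105 and 106 CPM in controls. Mutant 1 was the highest and mutant 4 the lowest of all 8 pups, and the log2 fold change of -0.21 (SE 0.16, edgeR adjusted p = 0.569) was -0.38 without mutant 1, -0.07 without mutant 4 and 0.04 with the Hox score as covariate. Fads1, the delta-5 desaturase, averaged 232 ± 24.3 CPM in mutants and 260 ± 7.06 CPM in controls (SD, n = 4 each). Scd1 and Scd2 are similar genes. Reads without a unique alignment have their own summary line in the gene counts, which was left out. Reads counted there belong to neither level, so the separate levels of the 2 genes remain uncertain.

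**Figure D3:**
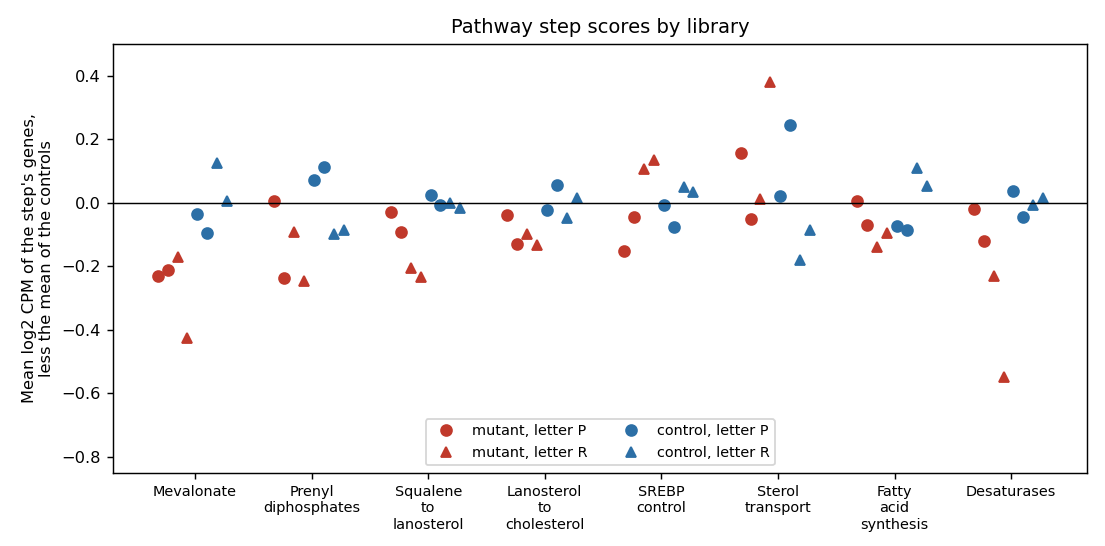
Mean log2 CPM of the genes of each pathway step in each library, less the mean of the 4 controls (vertical axis), with mutants left in red and controls right in blue, circles for title letter P and triangles for R. In the mevalonate step all 4 mutants (-0.17 to -0.42) lie below all controls, and among the desaturases mutant 4 lies at -0.55.

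Scores by step, the mean log2 CPM of its genes less the mean of the controls, show how far the pups differed. The mevalonate score was -0.23, -0.21, -0.17 and -0.42 in mutants 1 to 4 and -0.04, -0.10, 0.13 and 0.01 in controls 1 to 4. The score of all 20 sterol enzymes was -0.08, -0.16, -0.13 and -0.24 in mutants and between -0.01 and 0.02 in controls. The median log2 fold change of these enzymes was -0.17, and -0.08 with the Hox score as covariate. By score, every mutant was below every control, and mutant 4 was lowest. The score of the 7 fatty acid enzymes was -0.01, -0.10, -0.19 and -0.35 in mutants and between -0.06 and 0.04 in controls, and here mutant 1 lay among the controls. In all, 5 of the 33 genes (15.2%), namely Acat2, Fdps, Sqle, Tm7sf2 and Acly, had every mutant below every control, against 2.96% of all genes tested. None had every mutant above every control, against 3.60% of all genes.

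Within title letter P 26 of the 33 genes (78.8%) were lower in mutants, against 49.8% of all genes tested, and within R 25 (75.8%) were, against 45.7%. The median log2 fold change was -0.08 in P and -0.19 in R, from 2 pups per genotype in each. A total of 18 genes (54.5%) were lower in both letters, against 25.4% of all genes tested. Another 15 had opposite signs and none was higher in both. The shares of all genes in those classes are not given, so these counts describe the 33 genes only. Tm7sf2, at -0.36 in P and -0.56 in R, Fdps, at -0.34 and -0.39, and Mvk, at -0.41 and -0.27, had the same sign in both. Lbr, at -0.07 in P and 0.62 in R, Srebf1, at -0.12 and 0.50, and Nsdhl, at 0.10 and -0.51, had the larger difference in R and the opposite sign in P. The interaction of genotype and letter had an unadjusted p under 0.05 for 7 of the 33 (21.2%), near the 22.5% of all genes tested, and an adjusted p under 0.05 for none of the 33, against 3.20% of all genes. The smallest was that of Insig1 (edgeR interaction adjusted p = 0.0683).

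**Figure D4:**
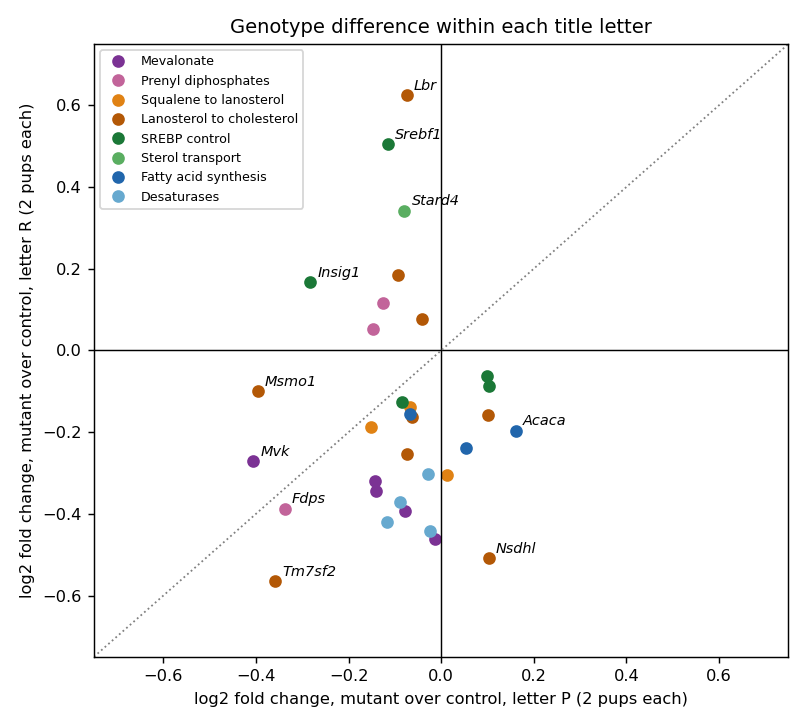
Log2 fold change of mutant over control among pups with title letter P (horizontal axis) and R (vertical axis), 2 mutants and 2 controls in each, with 1 point per gene coloured by pathway step. Tm7sf2, Fdps and Mvk are low on both axes, while Lbr and Srebf1 are high in R at 0.62 and 0.50 and close to 0 or below it in P.

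The letters were also compared with each other, after the values were seen. With genotype in the model, 7 of the 33 (21.2%) were lower in R than in P at an unadjusted p under 0.05, against 12.7% of all genes tested: Hmgcs1, Idi1, Lss, Cyp51, Msmo1, Hsd17b7 and Scd1. None passed after adjustment, against 0.0190% of all genes in either direction and 0.00633% lower in R. In sign alone 18 of the 33 were lower in R, a share close to the 50.2% of all genes tested. In the other direction 4 of the 33 were higher in R at an unadjusted p under 0.05: Ebp, Srebf1, Srebf2 and Mvd. Their share of the 33 was close to the 13.3% of all genes tested. Ebp had the smallest p of the 33, with a log2 difference of R over P of 0.38 (SE 0.10, edgeR adjusted p = 0.0653), followed by Srebf1 at 0.44 (SE 0.13, edgeR adjusted p = 0.0863). With the letter as a block, 9 of the 33 (27.3%) were lower in mutants at an unadjusted p under 0.05, against 8.98% of all genes tested, and none passed after adjustment, against 0% of all genes.

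Exon bin counts, deposited beside the gene counts, tell whether a difference runs along a gene. Over 434 bins of the 33 genes with a mean of at least 20 counts, 310 (71.4%) had a lower mean in mutants, against 42.7% of all 141031 bins at that level, and 124 a higher one. In 41 of the 434 (9.45%) every mutant lay below every control, against 2.01% of all such bins. A read can fall in several bins, so bins of a gene are not separate measurements. All 11 bins of Fdps were lower in mutants, with log2 ratios of -0.47 to -0.27, and 9 of them had every mutant below every control. All 9 bins of Acat2, all 11 of Mvk, all 10 of Mvd that were counted and all 8 of the Scd2 group, which also holds Mir5114, were lower as well. All 14 bins of Lbr and all 19 of Srebf1 were higher. The bins of Tm7sf2 are joined with those of its neighbour Vps51, and Tm7sf2 comes first along chromosome 19 in RefSeq. Bins 1 to 10 had log2 ratios of -0.64 to -0.37, and bins 12 to 21 of -0.16 to 0.01. In the gene table Vps51, named after its values were seen, averaged 50.9 ± 8.49 CPM in mutants and 52.8 ± 5.55 CPM in controls (SD, n = 4 each), and its groups overlapped.

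**Figure D5:**
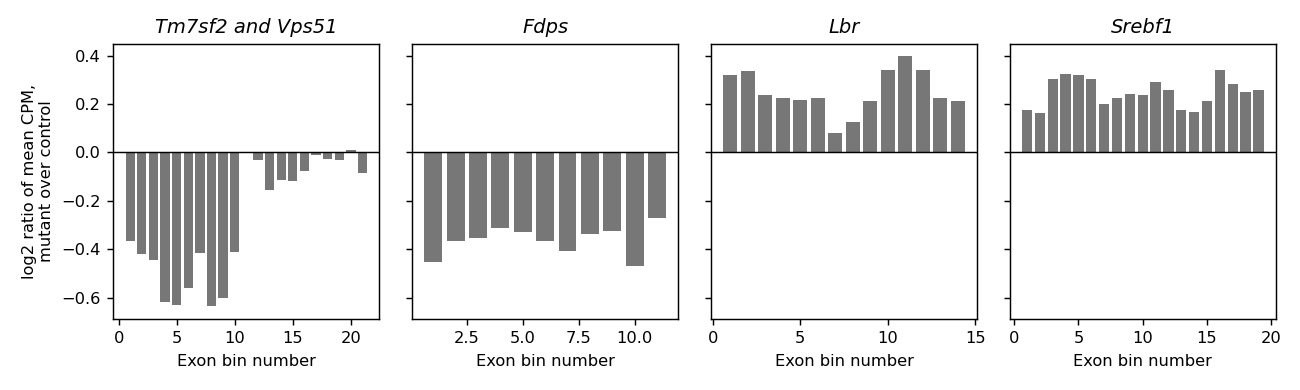
Log2 ratio of mean CPM of mutants over controls (vertical axis) for each exon bin with a mean of at least 20 counts (horizontal axis, bin number along the chromosome), 4 pups per group. The bars of Fdps all lie below 0 and those of Lbr and Srebf1 above it, and in the joined group of Tm7sf2 and Vps51 bins 1 to 10 lie between -0.64 and -0.37 and the later ones near 0.

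Other genes of lipid metabolism came from 5 lists with 59 tested genes, of which none passed an adjusted p of 0.05. Of 20 genes of fatty acid supply and elongation, 16 had lower means, against 47.7% of all genes tested. Their median log2 fold change was -0.17. Mid1ip1, an activator of acetyl-CoA carboxylase, stood at 58.3, 69.9, 71.1 and 49.1 CPM in mutants 1 to 4 and at 92.4, 77.6, 84.7 and 81.6 CPM in controls 1 to 4, with no overlap and a log2 fold change of -0.44 (SE 0.12, edgeR adjusted p = 0.381). Slc25a1, which exports citrate from mitochondria for Acly, had a log2 fold change of -0.33, and Acacb, the mitochondrial acetyl-CoA carboxylase, 0.39, with every mutant above every control.

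Genes of sterol uptake, efflux and storage went both ways, with 9 of 19 lower and a median log2 fold change of 0.0027. Apoe, the main lipid carrier protein secreted by brain glia, stood at 914, 1089, 1300 and 599 CPM in mutants 1 to 4 and at 1564, 1247, 1611 and 1344 CPM in controls 1 to 4, a log2 fold change of -0.56 (SE 0.21, edgeR adjusted p = 0.381). Mutant 3 lay above control 2, and the other 3 mutants lay below all controls. Vldlr, a receptor for Apoe and Reelin, stood at 135, 124, 122 and 163 CPM in mutants and at 102, 108, 103 and 114 CPM in controls, with no overlap and a log2 fold change of 0.35 (SE 0.11, edgeR adjusted p = 0.381). Of 9 genes of the non-sterol isoprenoid branches 4 were lower, with a median of 0.04, and of 8 genes of a list centred on SREBP processing 1 was lower, with a median of 0.07.

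Mean levels of cell markers differed between the groups too, and in bulk tissue fewer cells of a type and less RNA per cell cannot be told apart. Of all genes tested, 47.7% were lower and 52.3% higher in mutants by log2 fold change. Of 10 oligodendrocyte markers 9 had lower means in mutants, and their summed level was 647 to 1250 CPM in mutants and 1250 to 1890 CPM in controls. Of 9 astroglial markers 7 were lower, at 3420 to 4180 CPM in mutants and 3810 to 4540 CPM in controls. All 14 brainstem and Hox markers were lower, at 8.14 to 190 CPM in mutants and 143 to 234 CPM in controls. All 9 granule precursor markers were higher, at 1130 to 2210 CPM in mutants and 1090 to 1310 CPM in controls, and all 9 markers of dividing cells were higher, at 1160 to 2040 CPM in mutants and 987 to 1140 CPM in controls. All 7 choroid plexus markers had every mutant above every control, against 3.60% of all genes tested. Their sum was 3360 to 5910 CPM in mutants and 1320 to 3100 CPM in controls. All 5 GABAergic interneuron, all 3 Schwann cell and all 7 microglia markers were lower. All 7 Purkinje cell markers and all 7 endothelial and pericyte markers were higher. Of 6 granule neuron markers 3 were lower, and of 6 meningeal markers 4 were. None of these markers passed an adjusted p of 0.05 with edgeR, against 0% of all genes. DESeq2 called 4 of the 99 markers over all lists, against 0.324% of its 16062 genes. Of the choroid plexus list Cldn2 (DESeq2 adjusted p = 0.00121), Kl (0.00483) and Clic6 (0.0190) were higher in mutants. Isl1 of the brainstem list was lower in mutants (DESeq2 adjusted p = 0.0133). The genotype by letter interaction passed an adjusted p of 0.05 for 3 of the 9 markers of dividing cells (edgeR), against 3.20% of all genes tested. No marker of these lists was at 0 in any library. Mutant 4, lowest for sterol and fatty acid enzymes and highest for Lbr and Srebf1, had an oligodendrocyte score of -1.29, against -0.28 to -0.49 in the other mutants, and a granule precursor score of 0.99, against -0.01 to 0.54. The same pup had the lowest score of the mutants for GABAergic interneurons (-1.20), microglia (-0.76), astroglia (-0.65) and Schwann cells (-2.23). Its scores for dividing cells (0.92) and Purkinje cells (0.67) were the highest of the mutants. For choroid plexus and for endothelial and pericyte markers mutant 2 was highest. The part of these markers in the lipid gene results was not tested. Less the mean of the controls, the Hox score was 0.02, -1.37, -0.71 and -4.13 in mutants 1 to 4 and -0.34 to 0.33 in controls. The fit with that score, in which the median of the 33 genes was -0.07, therefore cannot separate these markers from genotype.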

How the data were processed

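RNA of 8 whole cerebella was sequenced after polyA selection (TruSeq), per the labels' protocols. The authors deposited raw read counts per gene and per exon bin for each pup. The submitters' processing notes list TopHat, HTSeq, DESeq2 and the build mm9, with neither version nor role. Annotation and strand setting are not stated, so overlapping genes are uncertain. The 5 summary lines of each gene table, 24.8 to 34.3% of entries, were left out. Within groups all pairs of libraries differed by more than counting noise (chi-square per degree of freedom 7.76 to 85.7).

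Differences between genotypes were fitted in R 4.3.3 by edgeR 4.0.16 (filterByExpr, TMM, robust quasi-likelihood F test, two-sided, genotype as the only term), with Benjamini-Hochberg adjustment over all genes. Each standard error was derived from a log2 fold change and the F value behind it. DESeq2 1.42.0, other scalings and filters, the title letter as a block, a Hox and brainstem score as covariate and leaving out each pup were alternatives. Log2 CPM for scores used a prior count of 2. Exon bins were scaled by the gene library sizes and described without a test. The gene test was checked on simulated counts. The members and lists were chosen with earlier results of these data known. Values in every pup were given for the 10 members with the smallest p, the SREBP control genes, Scd1, Scd2 and the member with the smallest p in each step; of the other lists up to 3 genes with unadjusted p under 0.05 were eligible. Some genes of the other lists are not reported here.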

Additional observations from a re-analysis of the deposited data

Results flagged for a closer look

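In 66 groups of 4 pups, 4 single values lay far from the other 3 of their group, where chance flags about 1 in 20 groups. Idi1 was highest in mutant 1 at 139 CPM, Nsdhl was lowest in control 1 at 46.9 CPM, Sc5d was highest in control 4 at 56.7 CPM and Acly was highest in control 3 at 354 CPM. For Insig1 both P mutants lay below both P controls, with a log2 fold change of -0.28, and both R mutants above both R controls, at 0.17. For Acaca both P mutants lay above both P controls, at 0.16, and both R mutants below both R controls, at -0.20. The test of that difference gave an edgeR interaction adjusted p of 0.0683 for Insig1 and 0.191 for Acaca, so neither passed.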

How the results depend on the processing

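None of the 33 genes and none of the other lipid genes passed an adjusted p of 0.05 in any of the 15 alternatives, and the number of the 33 below 0 was 26 to 29, though not always of the same genes. Over all genes, DESeq2 called 52, and leaving out 1 pup called 0 to 1. The median of the 33 genes was -0.0733 with the Hox score as covariate and -0.19 to -0.10 with 1 pup left out, at -0.19 without mutant 1 and -0.17 without control 2. With the Hox score the median of the sterol enzymes was -0.0842 and that of the fatty acid enzymes -0.0778. With the title letter as a block the median was -0.11, and as no label numbers pair the pups, no other paired fit was made. The count of the 33 lower at an unadjusted p under 0.05 was 5 as reported, 9 with that block, 2 with the Hox score and 3 to 10 with 1 pup left out. Of all genes tested, 5.70% were lower at that level as reported and 8.98% with that block. The share of all genes is not given for the other fits, so their counts describe the 33 genes only. Some log2 fold changes turned sign, and not all of these were near 0 as reported. Scap was -0.0085 with RLE size factors, -0.0077 with DESeq2, -0.016 with a filter of 1 CPM in 4 libraries and -0.0697 to 0.0601 with 1 pup left out. Srebf2 was -0.0061 with that filter, -0.0549 with the Hox score and -0.0709 to 0.0764 with 1 pup left out. With the Hox score, Lbr was -0.011, Srebf1 -0.027, Stard4 -0.012 and Scd1 0.0443. As reported these 4 were 0.29, 0.24, 0.13 and -0.21. The causes were not tested. With 4 pups per group, no difference of these genes passed adjustment over all genes, with counts of 351 or more per gene in every library.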
